A study of Homo sapiens with 7 samples.

Results

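In each gene, the most 5' exon bin that reached a set number of reads was examined for its share of the gene's reads after knockdown of RBM15. RNA-seq was compared between 1 library of MEG-01 cells, a human megakaryoblastic leukemia line, and 2 libraries of MEG-01 lines in which RBM15 was knocked down by shRBM15#1 or shRBM15#2. The labels give all 3 cultures as carrying lentiviral transgenes, as grown in RPMI-1640 medium with fetal bovine serum and as harvested in exponential phase. They name no transgene for the control. An exon bin is a stretch of exon between neighbouring annotated exon boundaries, so that 1 exon with several annotated ends is cut into several contiguous bins. A bin qualified with a summed count of at least 30 reads over the 3 libraries, and a gene was kept with at least 5 such bins. This left 10304 genes, of which 51 had no strand in the annotation. The most 5' qualifying bin of each of the other 10253 genes was taken, out of 226213 qualifying bins of the same genes and 625148 bins in all. The members were thus chosen by position and by summed counts, of which 2 of the 3 libraries were knockdown libraries, and not by the difference between the groups.

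A gene with more than one promoter starts its transcripts at different first exons, and these usually carry different untranslated leaders while the coding sequence downstream is often shared. Within a single promoter, transcription can start over a range of positions, so the outermost bases of a first exon are covered by fewer reads than the bases further in. Blood cell genes such as RUNX1, TAL1 and FLI1 are known for promoters that differ in use between cell types. RBM15 is an RNA-binding protein of the SPEN family that takes part in RNA splicing and in m6A methylation of mRNA.

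At 8551 of the 10253 members at least 1 annotated transcript started (83.4%). At the remaining members the first qualifying bin lay inside a longer exon or downstream of start exons whose bins held under 30 reads. The label of a first exon thus held for most members and not for every one. In 2431 genes the member was the outermost bin of the gene model. The median length of a member was 107 bases, and its median GC content was 65.9%, against 49.1% over all bins tested. In 7308 genes (71.3%) at least 1 other start exon qualified further downstream. At the lower limit of the rule, 294 members held exactly 30 reads, and 308 genes had a bin upstream of the member that stopped at 29. There were 456 genes with exactly 5 qualifying bins, and 539 genes with 4 were left out.

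The 7 sequences below show the outer edge of the exons on which the results for promoters turn. Each gives 80 bases before the annotated edge in lower case and the first 25 bases of the exon in capitals, 5' to 3' on the strand of the gene, in GRCh37. ATP2C1 is shown at both of its competing start exons (chr3:130569359-130569463 and chr3:130612732-130612836, plus strand), since their reads moved apart. FLI1 (chr11:128563810-128563914, plus strand), SOCS2 (chr12:93963510-93963614, plus strand) and TAL1 (chr1:47697868-47697972, minus strand) are blood cell and signaling genes described below. RPL29 (chr3:52029934-52030038, minus strand) and RPL37 (chr5:40835413-40835517, minus strand) stand for the ribosomal protein genes. No annotated exon lay in the lower-case bases.
ATP2C1, exon of bin 003: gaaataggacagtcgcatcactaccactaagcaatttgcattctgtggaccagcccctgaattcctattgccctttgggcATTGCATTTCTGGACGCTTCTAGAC
ATP2C1, exon of bin 009: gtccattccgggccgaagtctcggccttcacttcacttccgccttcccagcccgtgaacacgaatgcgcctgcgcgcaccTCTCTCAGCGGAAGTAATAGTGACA
FLI1, exon of bin 005: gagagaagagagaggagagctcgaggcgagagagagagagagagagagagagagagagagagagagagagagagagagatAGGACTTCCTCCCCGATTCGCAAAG
SOCS2, exon of bin 001: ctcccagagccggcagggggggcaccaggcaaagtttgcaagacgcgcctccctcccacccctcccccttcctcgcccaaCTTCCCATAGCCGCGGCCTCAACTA
TAL1, exon of bin 018: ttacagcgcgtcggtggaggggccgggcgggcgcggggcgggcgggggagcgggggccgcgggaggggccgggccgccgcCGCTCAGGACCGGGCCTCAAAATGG
RPL29, exon of bin 025: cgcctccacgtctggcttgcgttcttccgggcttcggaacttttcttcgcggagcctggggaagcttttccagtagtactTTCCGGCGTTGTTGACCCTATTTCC
RPL37, exon of bin 020: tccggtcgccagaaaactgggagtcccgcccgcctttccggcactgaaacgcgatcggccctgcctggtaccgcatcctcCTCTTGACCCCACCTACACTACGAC

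Before the members, the libraries were checked. The control library held 53230029 reads on exon bins, and the shRBM15#1 and shRBM15#2 libraries held 41629454 and 52458857. Lines that name no gene held 23.2%, 32.0% and 23.5% of all counted reads, so the shRBM15#1 library stood apart in this share. RBM15 itself was at 80.1 CPM (counts scaled to the library total) in the control and at 43.6 and 40.6 CPM in the knockdown lines, a log2 fold change of -0.93 ± 0.23 (SE; adjusted p = 0.0908). In these bulk libraries, fewer cells of a type and less RNA per cell cannot be told apart. All 11 megakaryocyte markers found in the table had reads, but GP9 and PF4 stayed under 0.1 CPM in every library. The 11 summed to 1243.1 CPM in the control and 867.6 and 1133.8 CPM in the knockdown lines. Their fitted log2 fold changes went in both directions, from -0.76 in ITGA2B to 3.72 in PPBP, with no adjusted p under 0.05. The summed level of 10 erythroid markers was 960.8 CPM in the control and 4379.5 and 4315.0 CPM in the knockdown lines. HBG2 alone held 706.6, 3529.9 and 3482.4 CPM of these sums. All 10 had log2 fold changes above 0, from 0.26 in EPOR to 3.94 in HBA2. The 7 myeloid markers summed to 135.1, 39.5 and 73.5 CPM and the 3 lymphoid markers to 0.646, 3.07 and 1.66 CPM. The myeloid difference was that of CTSG, the cathepsin G gene, at 95.7, 3.72 and 8.53 CPM, while the fitted log2 fold changes of MPO, LYZ, CEBPE, CSF1R and CD14 lay between 0.11 and 3.12 with no adjusted p under 0.05. Their part in the results below was not tested.

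Usage was read as the relative log2 fold change of a bin, which is its own log2 change after knockdown minus that of its gene. A bin was called when its unadjusted p was under 0.05 and its fold above 1.2. Of the 10253 members, 339 (3.31%) were called, 205 higher and 134 lower after knockdown. Over all 234192 bins tested, 1.45% were called, 0.662% higher and 0.787% lower. The share of members called was thus above that of all bins in both directions, at 2.0% higher and 1.31% lower. No test was run on this difference. The call limit is unadjusted, and 314 of the 339 members called by it had an adjusted p that rounds to 1. At an adjusted p under 0.05, 4 members were called (RPL29, ATP2C1, HSPA8 and SOCS2), beside 0.0205% of all bins. The median relative log2 fold change of the members was 0.009, and that of all bins was 0.007. The interquartile range of the members was -0.26 to 0.29, wider than the -0.15 to 0.16 of all bins. The median share of the gene's reads was 1.72% in the control and 1.73% and 1.74% in the knockdown lines.

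**Figure D1:**
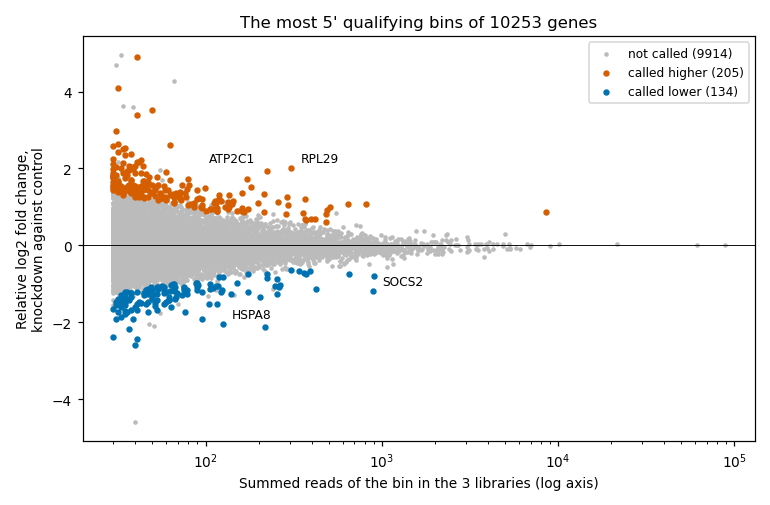
Each point is the most 5' qualifying bin of 1 gene, with the summed reads of the 3 libraries on a log axis and the relative log2 fold change, knockdown against control, on the vertical axis. The 205 bins called higher and the 134 called lower lie mostly at low counts, and the 4 named bins passed an adjusted p under 0.05.

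Members held fewer reads than other bins, with a median summed count of 63 against 187, and the calls were read within classes of count. Among members with 30 to 59 reads, 3.81% were called, against 2.63% of all bins of that count. From 120 to 299 reads the shares were 2.57% and 1.23%, and from 300 to 999 reads they were 2.58% and 0.936%. At 1000 reads and above, 1 of 185 members was called (0.541%), against 0.6% of all such bins. That member was the first exon bin of SNHG3, a host gene of small nucleolar RNAs, with 2371 control reads and 1975 and 4218 reads after knockdown (relative log2 fold change 0.86 ± 0.27, SE). Its share of the gene's reads was 4.03%, 6.11% and 8.32%, higher in both lines than in the control. Of the members called higher, 97 had under 10 reads in the control, and of those called lower 1 did. Where every library had at least 10 reads, 106 members were called higher and 71 lower. Among the 4147 members that reached 30 reads on the control library alone, a choice that favours a high control, 33 were called higher and 80 lower. The split between the directions therefore moved with the libraries that carried a bin over the limit.

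The called share was highest at the ends of genes. When the qualifying bins of each gene were cut into 10 equal parts from the 5' to the 3' end, 1.73% of bins in part 1 were called higher and 1.09% lower. In part 7 these shares were 0.317% and 0.657%. In part 10 they were 0.586% and 1.47%, and lower calls were in the majority from part 4 on. The second qualifying bin of the same genes was called in 2.33% of cases and the most 3' bin in 3.07%. The most 3' bins showed the opposite direction to the members, with 87 called higher and 228 lower. These positions share genes and reads, since a read over 2 contiguous bins is counted in both, and the difference between them was not tested.

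**Figure D2:**
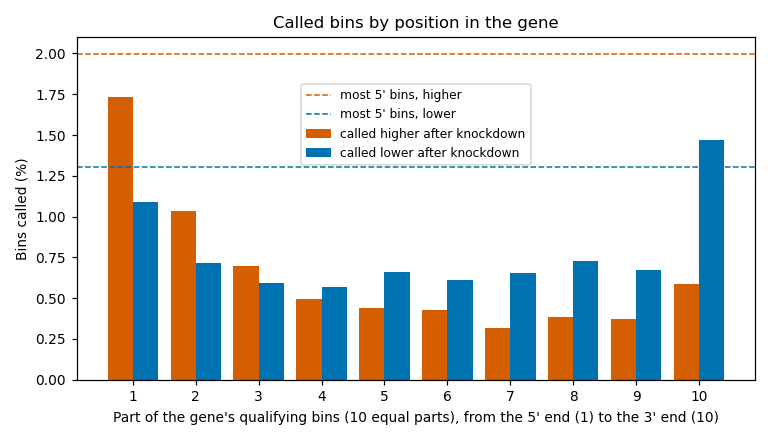
Bars give the percent of bins called higher and lower after knockdown in each of 10 equal parts of the gene's qualifying bins, from the 5' end (1) to the 3' end (10), and dashed lines give the same for the most 5' bins. Higher calls lead in parts 1 to 3 and lower calls in parts 4 to 10, and 1.47% of bins in part 10 were called lower.

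ATP2C1, which encodes a calcium and manganese pump of the Golgi, had start exons that moved in opposite directions. Its most 5' qualifying bin, 003, had 20 control reads and 101 and 103 reads after knockdown. Its share of the gene's reads was 0.212% in the control (95% exact binomial interval 0.129 to 0.327%), 0.899% with shRBM15#1 (0.733 to 1.09%) and 0.723% with shRBM15#2 (0.591 to 0.876%). Both knockdown intervals lay above the control interval, and the relative log2 fold change was 1.93 ± 0.25 (SE; adjusted p = 0.038, or 0.115 where all bins with at least 1 read were tested). Bins 004 and 005 of the same exon were at 1.86 ± 0.25 and 1.79 ± 0.21. Contiguous bins count many of the same reads, here and in the genes below, so their values are not separate support. Bin 007 rose as well, from 2 reads to 13 and 19 (2.48 ± 0.53). The next start exon, whose outer edge is the second ATP2C1 sequence shown, went the other way. Its bin 009 had 36 control reads and 12 and 28 reads after knockdown, a relative log2 fold change of -1.3 ± 0.28 (adjusted p = 1). Bin 010, contiguous with it, was at -1.18 ± 0.31, also with an adjusted p of 1. From bin 011 on, the values lay between -0.58 and 0.42 over the following 9 bins of at least 30 reads, and none of them was called. The gene as a whole was at 0.46 on the log2 scale (adjusted p = 0.316).

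SOCS2, an inhibitor of cytokine signaling through JAK and STAT proteins, lost reads at its outermost start exon. Bin 001 had 577 control reads and 150 and 169 reads after knockdown. Its share fell from 3.09% (2.85 to 3.35%) to 1.38% (1.17 to 1.61%) and 1.35% (1.15 to 1.57%), with no overlap of the intervals. The relative log2 fold change was -1.18 ± 0.20 (SE; adjusted p = 0.038, or 0.156 with all bins of at least 1 read). The start exons downstream were not called, with bin 002 at 0.01 (122, 74 and 80 reads) and bin 003 at -0.2 (89, 47 and 50 reads). The gene itself was at -0.64 (adjusted p = 0.175), so the change of bin 001 alone, -1.82, was larger than that of its gene.

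FLI1, an ETS family factor of megakaryocytes and platelets, gained reads at the outer edge of its main first exon. Bin 005 had 15 control reads and 72 and 85 reads after knockdown, or 0.491%, 1.82% and 1.48% of the gene's reads. The relative log2 fold change was 1.73 ± 0.34 (SE; adjusted p = 0.325). Bin 006, contiguous with it and 4 bases long, was at 1.61 ± 0.35, from largely the same reads (15, 63 and 82). Bin 007, which holds most reads of that exon, had 168, 278 and 396 reads and a value of 0.34 ± 0.21 that was not called. The rise relative to the gene was thus called in the outermost bins of the exon only, while the gene was at 0.68 (adjusted p = 0.202).

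TAL1, a bHLH factor of blood stem cells and of the erythroid and megakaryocytic lineages, showed the reverse. Bin 018, its outermost exon, had 29 control reads and 20 and 13 reads after knockdown, a relative log2 fold change of -1.42 ± 0.35 (adjusted p = 1). The next start exons, bins 017 and 016, were at -1.1 ± 0.22 (122, 62 and 117 reads) and -0.84 ± 0.21 (126, 87 and 133 reads). Their read numbers in the shRBM15#2 line were close to those of the control, while the gene was at 0.66 (adjusted p = 0.193). The 3 exons at the 5' end thus took a smaller part of the gene's reads in both lines. Bin 010, the next one downstream, had 186, 195 and 251 reads and a value of -0.37 ± 0.19 that was not called. It has the position of the TAL1 exon that the study, using other programs, reports as skipped after knockdown. Bins 009 to 006, further downstream, lay between 0.1 and 0.15 and were not called.

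**Figure D3:**
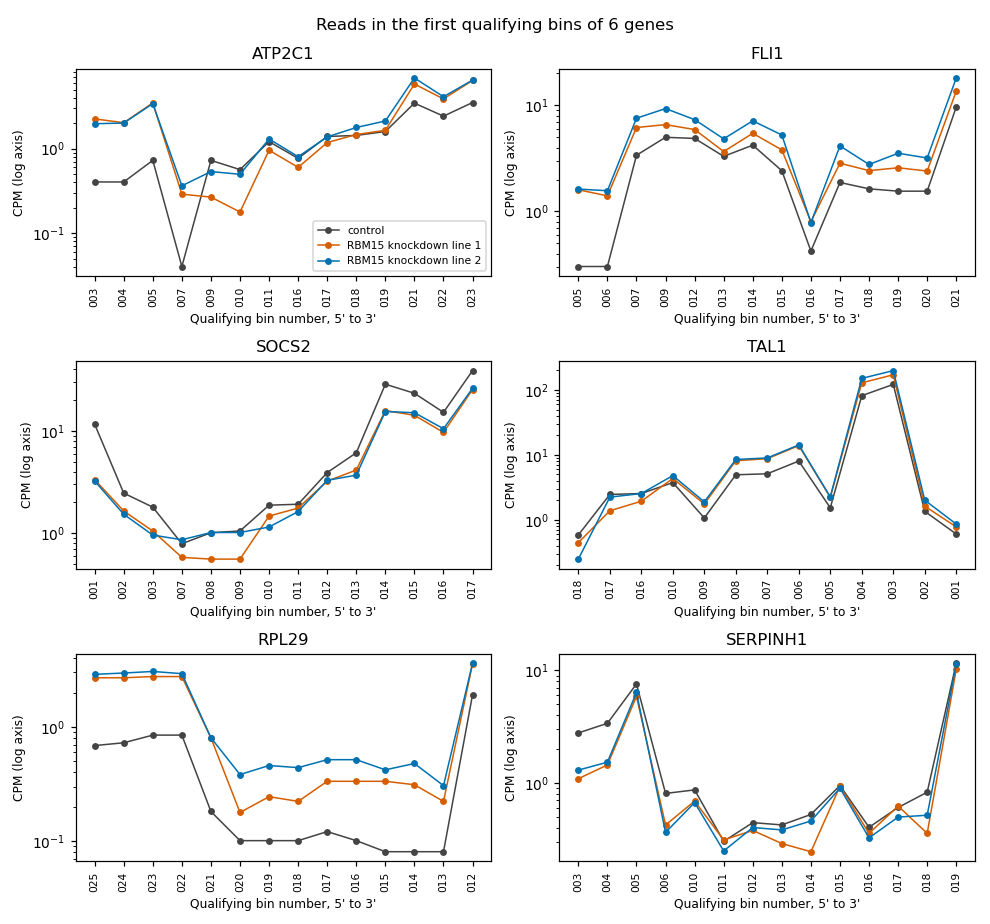
CPM (log axis) in the first 14 qualifying bins, or all of them where there are fewer, of 6 genes from the 5' end, with the control in grey and the knockdown lines in orange and blue. The outer bins of ATP2C1, FLI1 and RPL29 stand above the control in both knockdown lines, and bin 001 of SOCS2 stands below it.

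Of the members called higher, 18 belonged to genes for proteins of the cytosolic ribosome. This list was drawn up after the values had been seen, and it received no test. Of 83 such members 18 were called, all higher, beside 2.0% of all members. Their median relative log2 fold change was 0.40, and 71 of the 83 values were above 0. RPL29, of the large subunit, was the one with an adjusted p under 0.05, with 34 control reads and 121 and 151 reads after knockdown. Its share was 0.187% (0.129 to 0.261%), 0.707% (0.587 to 0.844%) and 0.806% (0.683 to 0.945%), and its relative log2 fold change was 2.01 ± 0.29 (SE; adjusted p = 0.00275). The next bins of the RPL29 exon, 024, 023 and 022, were at 1.94, 1.76 and 1.73, and as contiguous bins they share reads with it. Bins 005 to 003, with most reads of the gene, were at -0.08 and -0.06. The largest value, in RPL15, rested on 3, 9 and 20 reads (2.42 ± 0.62). Further examples, all with at least 100 reads, were RPL26 with 29, 76 and 77 reads in its outermost 20 bases (1.53 ± 0.38), RPL37 with 55, 119 and 116 reads (1.27 ± 0.27) and RPS15A with 72, 158 and 135 reads (1.21 ± 0.27). RPS19, a small subunit protein mutated in Diamond-Blackfan anemia, had 138, 202 and 303 reads in its first bin (1.07 ± 0.18).

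These bins carried very little of each gene. The median share of a ribosomal protein member was 0.114% in the control, against 1.72% over all members, and the genes themselves hardly moved, with a median gene-level log2 fold change of -0.12. Members of other genes with a mean share under 0.2% were called higher in 34 and lower in 18 of 653 cases, and their median was 0.127. Ribosomal protein members of that class had 13 of 49 called, all higher, and a median of 0.612. Ribosomal protein genes have many near-identical processed copies elsewhere in the genome, and it is not known here how reads shared with such copies were counted, so these values are uncertain.

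**Figure D4:**
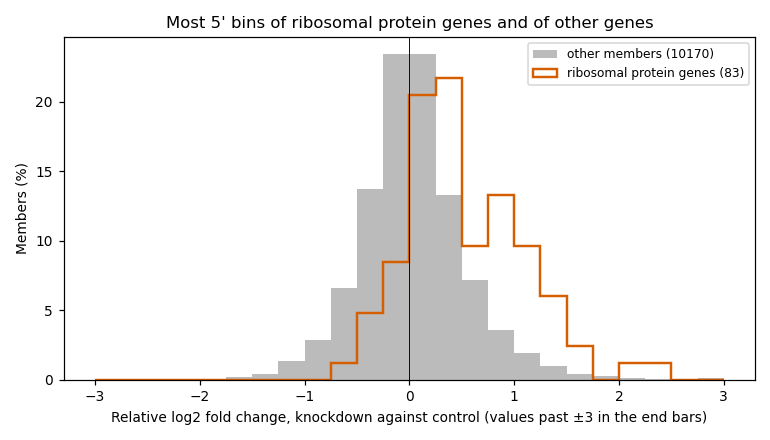
Distribution of the relative log2 fold change, knockdown against control, over the most 5' bins of 83 ribosomal protein genes (orange line) and of the other 10170 members (grey bars), each in percent of its set. The ribosomal protein bins are shifted to higher values, with a median of 0.40.

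HSPA8, which encodes the constitutive HSC70 chaperone, had the lowest adjusted p among the members called lower. Bin 067 (chr11:122933458-122933938, minus strand) lies upstream of the main first exon and had 52 control reads and 30 and 43 reads after knockdown. Its share fell from 0.0487% (0.0364 to 0.0638%) to 0.0107% (0.0072 to 0.0152%) and 0.0130% (0.00939 to 0.0175%), and its relative log2 fold change was -2.04 ± 0.21 (SE; adjusted p = 0.00976). The bin itself changed by -0.49 on the log2 scale, whereas the gene stood at 1.55 (adjusted p = 0.0175). The difference was therefore largely that of the gene's other exons. Bin 058 of the main first exon had 1248, 3143 and 3919 reads and a relative value of -0.02. HSPA8 also has many near-identical copies in the genome.

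The same distinction was drawn for all called members. In 168 of the 205 members called higher (82.0%) and in 120 of the 134 called lower (89.6%), the log2 change of the bin was larger in size than that of its gene. The same held for 60.7% of all members. A call asks for a large difference between bin and gene, so a higher share among called members is partly built in. In the remaining called members the change of the gene was the larger in size. At gene level, 86 of 24887 genes tested passed an adjusted p under 0.01 (0.346%), of which 74 held a member. Of those 74 members 3 were called, all higher, beside 3.31% called over all members. That is close to the share over all members, and 3 members are too few to read a direction from.

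ATF4 targets, a list of 48 genes of amino acid supply and the stress response of which 43 had a member, had a median gene-level log2 fold change of -1.43, while their members had a median relative value of -0.01, next to 0.01 over all members. Of the 43 members 4 were called, all higher (9.3%, beside 3.31% of all members). In ASNS, the asparagine synthetase gene, bin 043 had 12, 15 and 10 reads while the gene fell by 1.86 on the log2 scale (adjusted p = 0.00851), which gave a relative value of 1.95 ± 0.86. In WARS1, the tryptophanyl-tRNA synthetase gene, bin 096 had 20, 12 and 18 reads while the gene fell by 1.96 (adjusted p = 0.00552), and the relative value was 1.56 ± 0.54. In ASNS the relative value came down from bin to bin within the exon, to 0.15 in bin 040. In WARS1 it was 0.92 in bin 087 of the same exon. Further downstream, WARS1 bins 080 to 078 were called higher as well, at 1.81, 1.91 and 1.92. WARS1 bins 074 to 067, with 796 to 2436 control reads, lay between -0.46 and -0.37 and were not called. ATF5, a bZIP factor of the same response, held most reads among these members. Its bin 005 had 328, 234 and 252 reads, or 11.3%, 21.7% and 26.7% of the gene's reads, and a relative value of 1.07 ± 0.38 (adjusted p = 1). The bin overlaps another gene, and without strand the reads of both cannot be told apart. No annotated transcript starts at bin 005 of ATF5. PSPH, of serine synthesis, had 15, 12 and 32 reads in bin 030, with a value of 1.45 ± 0.46 with 0.78 in one line and 1.85 in the other, while the gene was at -0.89.

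The other members with large changes at 100 reads or more served varied functions. PTPN7, a phosphatase of blood cells, had 64, 14 and 26 reads in bin 046 (-1.52 ± 0.36), and the contiguous bin 045 had 150, 37 and 88 (-1.13 ± 0.26). SERPINH1, the collagen chaperone HSP47, had 138, 49 and 68 reads in bin 003 (-1.25 ± 0.16; adjusted p = 0.223) while its gene was at 0.04, and bin 004 was at -1.22 ± 0.15. In SERPINH1 bin 005, which holds most reads of that exon, the value was -0.34 and was not called. ZC3H15, a zinc finger protein, showed the same form in the other direction. Its bins 001 to 004 were at 1.33, 0.91, 0.71 and 0.02, from 38, 77 and 100 reads in the outermost bin to 4169, 3158 and 4695 reads in bin 004. TACC2, a centrosomal protein, had 183, 15 and 20 reads in bin 018 (-2.12 ± 0.51), an exon of 4952 bases with coding sequence at which no transcript starts. MAGI1 (67, 42 and 30 reads), FRAS1 (61, 21 and 41), the RNA-binding protein gene ZFP36L1 (119, 29 and 57), the long noncoding RNA ST8SIA6-AS1 (80, 9 and 27) and LY6E (83, 36 and 55) were called lower. The remodeler gene CHD9 (34, 51 and 77) and UNK (29, 50 and 41) were called higher. In ZFP36L1 the lines were far apart, at -2.07 and -0.62.

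**Figure D5:**
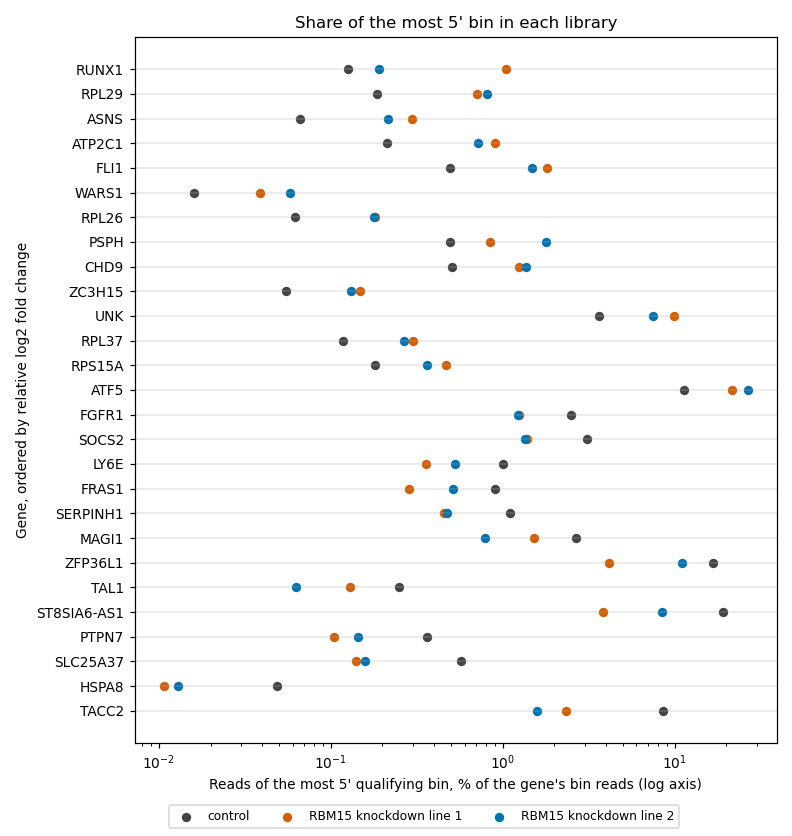
Percent of the gene's bin reads that fell in its most 5' qualifying bin (log axis) in the control and in both knockdown lines, for the members with an adjusted p under 0.05, those with the largest changes and the called members of the gene lists, as far as they are reported here. In each row the knockdown points lie on one side of the control, and RUNX1 and ZFP36L1 show the widest gaps between the lines.

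Among 30 members from genes with erythroid and housekeeping promoters, 3 were called (10.0%, beside 3.31% of all members), all lower, among them SLC25A37 and TAL1, and the median was -0.18. SLC25A37, the mitochondrial iron importer mitoferrin 1, had 50 reads in bin 001 in the control and 18 and 28 in the knockdown lines. Its relative log2 fold change was -1.92 ± 0.33 (adjusted p = 0.0602). The gene stood at 0.83, and bin 006, further into the same exon, had 553, 905 and 1318 reads and a value of 0.20 that was not called. Of the bins between them, 002 had 65, 38 and 69 reads and was called lower as well (-1.1 ± 0.28), while 003, 004 and 005 were not called (-0.16, 0.17 and 0.30).

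Among 82 members of genes known for alternative promoters, 3 were called higher (FLI1, RUNX1 and ATF5) and 3 lower, among them FGFR1 and TAL1, which is 7.32% beside 3.31% of all members, and the median was -0.14. The growth factor receptor gene FGFR1 had 30, 28 and 33 reads in bin 099 while its gene was at 1.07, for a relative value of -1.03 ± 0.31. Of 19 members from the blood factors and targets that the study names, RUNX1 was called higher and TAL1 lower (10.5%), and the median was 0.12. RUNX1 rested on few reads, with 8 in the control and 27 and 7 in the knockdown lines, so that the line with shRBM15#1 alone was high (3.05 against 0.60), and it was not called in the DEXSeq-type model. No transcript starts at this RUNX1 bin, which is 3411 bases long. GATA1 had 13, 12 and 13 reads in bin 001, a value of 0.11 ± 0.31. STAT5A (29, 20 and 25 reads), LEF1 (145, 72 and 110), RPTOR (48, 41 and 46), DEK (279, 153 and 180), CDC42 (22, 9 and 15), BRD9, TLE3, NCOR1, HDAC4, ZNF160 and MACROH2A1 were not called by edgeR, and DEK was called lower in the DEXSeq-type model in DESeq2 (-0.5). TAF9 did not have 5 qualifying bins. Only the most 5' bins are compared in this list. The splicing events that the study describes in GATA1, RUNX1, TAL1 and CDC42 lie at other exons. The study labels its macroH2A event H2AFZ and places it on another chromosome than MACROH2A1. These values therefore do not bear on the study's events. None of the 8 members from the m6A writer complex was called by edgeR or by the DEXSeq-type model in DESeq2, and the median was -0.13. Among them RBM15 had 32, 22 and 39 reads in bin 001, a value of 0.86 ± 0.45 that was not called, while its gene was lower.

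Features that the rule did not use were compared between called and other members. Members called higher and lower were contiguous with the next bin of the same exon in 71.7% and 73.1% of cases, against 60.4% of all members. They overlapped annotated coding sequence in 19.0% and 19.4%, against 36.6% of those not called. Another start exon qualified downstream in 77.6% and 80.6%, against 71.3%. Among the 159 genes with such an exon and a member called higher, another start bin was called lower in 9, higher in 12, in both directions in 1 and in neither in 137. For the 108 with a member called lower, another start bin was called higher in 3, lower in 7 and in neither in 98. Opposite calls at start exons, as in ATP2C1, were thus few among the called members. The same counts were not made for members that were not called, and 1.45% of all bins were called by these limits. These numbers can therefore not be told from that background. The median share in the control was 0.35% for members called higher and 1.08% for those called lower, against 1.72%, but this share is itself part of the contrast.

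GC content went with the direction. Of the 2550 members with the lowest GC content, up to 56.2%, 71 were called higher and 26 lower, and the median was 0.067. Of the 2564 members from 73.7% up, these numbers were 28 and 48, and the median was -0.089. The part of base composition in the results was not tested. With its trend removed, each of the called members described by name kept its direction. Those members had been chosen for a called change, so a kept direction could hardly fail and tests nothing. The authors' sites from the RIP-seq of RBM15, an immunoprecipitation of RNA bound by a protein, lay in the genes of 945 members. The antibody labels of those libraries and the sides of the authors' comparison conflict, so it is uncertain whether a site was enriched with the RBM15 antibody or with the control antibody. Of these 46 were called (4.87%), 24 higher and 22 lower, against 293 of 9308 members in other genes (3.15%). Few sites lay near the members themselves, with 70 members within 1 kb of a site, of which 2 were called, and 11 overlapping one, of which none was called by edgeR or by that model.

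Short motifs were counted in the 250 bases before and the 50 bases after the outer edge of each member, on both strands and with exact letters. AGATAA, a form of the GATA factor site, was found at 12.2% of members called higher, 5.22% of those called lower and 6.98% of all members. GGGCGG, the core of the GC box, was found at 51.7%, 64.9% and 62.2%. CCAAT was found at 37.1%, 26.1% and 35.5%, TATAAA at 5.37%, 4.48% and 7.31%, the ETS site CCGGAAGT at 10.7%, 8.21% and 8.16%, and the cyclic AMP response element TGACGTCA at 2.93%, 2.99% and 2.97%. The C/EBP-ATF site TGATGCAAT was found at 0.0%, 0.746% and 0.107%. Of the exons shown above, the windows of FLI1 and TAL1 held AGATAA, and those of ATP2C1 bin 009, TAL1, RPL29 and RPL37 held GGGCGG. These shares are given without a test, and a match of letters is not a bound site.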

How the data were processed

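RNA-seq of 1 control and 2 RBM15 knockdown libraries was used. Per the labels and the study's methods, read pairs without strand information were mapped by the authors with STAR on GRCh37, using the Ensembl GRCh37.70 models, and the deposited values are raw counts of reads in exon bins. The authors' fold changes, p-values and adjusted p-values in the same table were not used. Of the deposited RIP-seq list only the site positions, and the width computed from them, were used (unit other). The count files and the table were identical in all 625148 bins. The strand column of the table was 0 throughout, so strand came from GENCODE v44lift37, by identifier for 54481 genes and by transcript for 867.

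Usage was tested over 234192 bins with edgeR 4.0.16 (TMM, quasi-likelihood fit, diffSpliceDGE) in R 4.3.3, and adjusted over all of them by Benjamini-Hochberg. Its SE is the size of the relative log2 fold change divided by the square root of the F statistic. Genes were tested on summed bin counts with at least 30 reads. The scripts were tested on simulated data. DESeq2 1.42.0 gave alternative fits. Shares have exact (Clopper-Pearson) 95% intervals, which cover counting error only. The single control adds nothing to the estimate of spread, which rests on the 2 knockdown lines, and nothing states that these libraries come from separate cultures beyond their shRNAs. Without strand, reads of overlapping and antisense genes cannot be told apart. Named members were those with an adjusted p under 0.05, the 10 largest changes in each direction among called members with at least 100 reads and the same direction in both lines, called members of a list, and genes the study names. Ribosomal protein genes were added after values were seen. The members and lists were chosen with earlier results of these data known. Sequences were read from GRCh37, and figures were drawn with matplotlib 3.10.9 in Python 3.11.15. Some members are not reported here.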

Additional observations from a re-analysis of the deposited data

How the results depend on the processing

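The number of members called (339) and the share of them that were higher (60.5%) stayed within 1.5 times and within 10 percentage points under DESeq2 size factors (341), bins with at least 1 read (314), a DEXSeq-type model in DESeq2 (434, 55.1% higher) and genes with at least 3 (351) or 10 (305) qualifying bins. With bins of at least 300 reads, 1012 members remained and 24 were called. At an adjusted p under 0.05 there were 4 members, 2 with bins of at least 1 read (without ATP2C1 and SOCS2), 2 with bins of at least 300 reads and 10 in the DEXSeq-type model. The median relative log2 fold change of 0.009 was -0.018 at 300 reads and 0.026 with the trend of GC, length and count removed. With 1 knockdown line left out, it was between -0.003 and 0.012, and 1 library on each side allows no test. Among the members' genes 74 were called at an adjusted p under 0.01, and 157 with DESeq2 size factors, 526 with genes of at least 1 read and 401 with the DESeq2 Wald test. The cause was not tested. After the data had been seen, 4 further restrictions were tried. Members with at least 10 reads in every library gave 177 calls among 7421, members at which a transcript starts gave 280 calls and a median of -0.002, members overlapping no other gene gave 321 calls, and members outside ribosomal protein genes gave 321. All 40 called members described by name kept their direction in every alternative that gave them a value, and RUNX1 was not called in the DEXSeq-type model. These members had been named because they were called on the same counts. Those with the largest changes had also been chosen for the same direction in both lines. A kept direction is therefore no further support for them. No paired analysis was possible because there was 1 control library. A bin at the limit of 30 reads holds about 10 per library, where counting error alone is large.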
